A study of Oncorhynchus kisutch with 221 samples.

Results

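Gene expression in white muscle was compared between coho salmon (Oncorhynchus kisutch) caught in summer and in fall of 2009 in the southern Strait of Georgia, the inland sea between Vancouver Island and the mainland of British Columbia. The fish were all those with year 2009, the area label south_SoG and the season label Ocean_Summer or Ocean_Fall, which gave 43 of the 221 fish of the series. The 17 summer fish were 6 of hatchery and 11 of wild origin, and the 26 fall fish were 12 of hatchery and 14 of wild origin. Both groups were taken from salt water, and no agent, genotype or age is given for any of them. Per the labels, the RNA of each fish carried one Alexa dye and was hybridised with a pool of muscle RNA of all fish carrying the other dye, with no swap. The summer fish were 3 females, 12 males and 2 of sex label U, and the fall fish 11 females and 15 males. The labels also give each fish a region, whose meaning they do not explain. Among the summer fish the region was ECVI in 11, S_Main in 3, Fraser in 2 and unknown in 1. Among the fall fish it was Fraser in 11, ECVI in 7, S_Main in 7 and Chilliwack_R in 1.

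Coho salmon leave their rivers as smolts in spring and spend their first months at sea near the coast, where they feed and grow quickly through summer and fall. White muscle makes up most of the body of a salmon, powers burst swimming and holds most of the protein laid down in growth. The array's probes are known here by identifiers only, and 0 of them matched the gene table of the species, so no probe is named by gene and the tissue label could not be checked against muscle markers. In whole muscle, fewer cells of a type and less RNA per cell cannot be told apart.

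Each value is a log ratio of a fish to the muscle pool, written below as log2 with fish over pool, a reading that is likely but not stated in the sources used here. The table held 43636 probes, and 45.6% of the cells of the 43 fish were empty. Array medians lay between -0.011 and 0.02, and correlations between 2 of the arrays between -0.19 and 0.705. The fish lay on 22 slides, of which 2 slides, with 6 fish, held both seasons. The share of empty cells was 46.5% ± 4.86 (SD, n = 17) in summer and 45.1% ± 11.0 (n = 26) in fall, a difference of -1.35 percentage points (95% interval -6.34 to 3.64, two-sided permutation p = 0.643). It was lower in the 7 ECVI fall fish, at 33.9% ± 10.7, than in the 11 ECVI summer fish, at 47.9% ± 3.80, a comparison that was not tested. Fall replicates 9 and 18 stood apart from the other fish on the main axis of variation over 12465 probes, which held 14.9% of the variance. Their positions were 63.1 and 75.2, against -38.7 to 14.6 in summer fish and -30.4 to 24.5 in the other fall fish. The main counts that rest on these 2 fish are given with and without them, while lists and single values can include them.

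The fall fish were longer and heavier than the summer fish, while their mass for a given length differed by less than the spread between fish. Fork length in summer was lowest at 12.9 cm, with a median of 17.5 cm and a highest value of 22.4 cm, and in fall the lowest, median and highest were 17.1, 24.5 and 28.8 cm. The 2 seasons overlapped only between the shortest fall fish and the longest summer fish. The mean was 17.4 ± 2.28 cm (SD, n = 17) in summer and 24.1 ± 2.68 cm (n = 26) in fall, a difference of 6.75 cm (95% interval 5.20 to 8.29, permutation p = 2.00e-05, the smallest that 100000 permutations can give). The difference was 5.55 cm in wild fish (3.19 to 7.91) and 8.25 cm in hatchery fish (6.60 to 9.90). Mass was known for 14 summer and 24 fall fish and was 70.3 ± 32.7 g in summer and 173 ± 57.0 g in fall, a difference of 102 g (72.7 to 132, permutation p = 2.00e-05). Fulton's condition factor, 100 times the mass over the cube of the length, was 1.24 ± 0.102 in summer and 1.21 ± 0.0708 in fall. The difference of -0.0292 (-0.0937 to 0.0353) had a permutation p of 0.308.

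**Figure D1:**
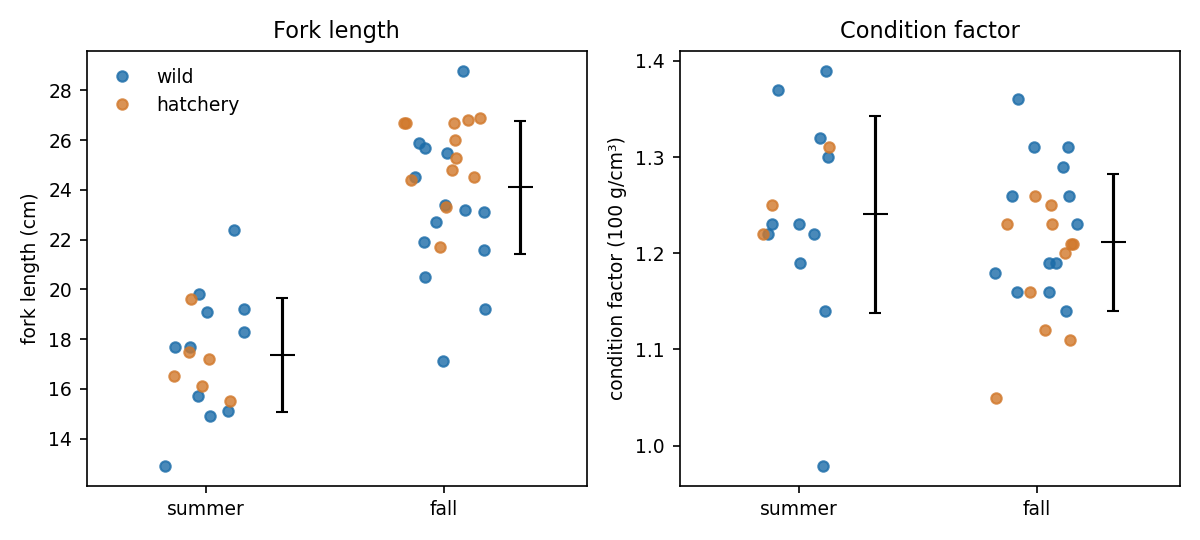
Fork length in cm (left) and condition factor in 100 g per cubic cm (right) of each southern fish of 2009 by season. Points are fish, blue for wild and orange for hatchery, and bars are the mean ± SD of all fish of a season. Fall fish had a mean length of 24.1 cm against 17.4 cm in summer, and mean condition factors were 1.21 and 1.24.

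The first question was which probes differed between summer and fall in the southern fish, with origin as a covariate. In limma's moderated test, 0 of 21784 probes passed a Benjamini-Hochberg adjusted p of 0.05, which is 0.00% of those tested. The lowest adjusted p was 0.371. With slide as a fixed block, where the 6 fish on slides with both seasons carry the comparison, 142 of 19484 probes passed, 76 higher and 66 lower in fall. In all 125 summer and fall fish of 2009, 33 of 20787 passed with that block. With slide as a random block 0 passed in the southern fish. At an unadjusted p under 0.05 there were 1725 probes, or 7.92%, of which 943 were higher and 782 lower in fall. Over all probes the median absolute difference was 0.104 and the median standard error 0.125. The typical 95% interval reached 0.253 to either side of its estimate, without adjustment for the number of probes. Single probes could differ by more than that without being called. Examples are C064R122, at 1.10, and C057R042, at -0.96 (limma adjusted p = 0.633 and 0.454). The fall mean of C064R122 was -1.05, and -1.35 without fall replicates 9 and 18, against -2.11 in summer.

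The probes with the lowest p are given as examples, chosen after their values were seen. C239R036 had a lowest, median and highest value of -0.85, -0.43 and 0.13 in summer and of -0.71, -0.02 and 0.38 in 25 fall fish. Most fall fish lay above most summer fish, with overlap at both ends. The difference was 0.38 (SE 0.09, 95% interval 0.21 to 0.56), with a limma adjusted p of 0.371. C206R151 ran from -1.57 through a median of -0.54 to 0.15 in summer and from -0.85 through 0.08 to 1.15 in fall, so that the fall median lay close to the summer maximum. Its difference was 0.62 (0.31 to 0.93). C205R107 went the other way, with -0.41, 0.26 and 0.62 in summer and -0.76, -0.14 and 0.48 in 24 fall fish, and a difference of -0.38 (-0.56 to -0.20). C233R056, with a value in 14 summer and 18 fall fish, differed by -0.36 (-0.53 to -0.19). The limma adjusted p of each of these probes was also 0.371, so none was called.

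The same step from summer to fall in 32 and 32 fish of the northern and middle Strait (label NM_SoG, year 2009) gave a list of probes that the southern fish had no part in choosing. There, 1651 of 21756 probes, or 7.59%, passed the threshold, 724 higher and 927 lower in fall. With slide as a random block the count was 292, 125 higher and 167 lower. Of the 724 higher probes, 719 were tested in the southern fish, and 623 of them, or 86.6%, were also higher there in fall. Of the 927 lower probes, 926 were tested and 800, or 86.4%, were also lower. Over all 21784 probes tested in the southern fish, 11116 were higher in fall. The differences were smaller in the south: the median of the higher probes was 0.44 in northern and middle fish and 0.16 in southern fish (quartiles 0.06 and 0.27). The median of the lower probes was -0.44 and -0.13 (quartiles -0.23 and -0.05). In the south, 126 of the higher probes reached an unadjusted p under 0.05 in the same direction, or 17.5%, against 4.33% over all probes, and of the lower probes 14.1% did so, against 3.59%. Opposite differences at that level were found for 1 of the higher and 3 of the lower probes. Some southern summer fish shared a slide with northern and middle summer fish, so the areas share no fish but are not separate by slide.

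The southern interval left out the northern and middle value for 361 of the higher probes, or 50.2%, and for 528 of the lower ones, or 57.0%; the northern and middle values of these probes were chosen by their own threshold and can overstate the difference there. The difference between the areas was then tested directly. In a limma fit of all fish of both areas with the product of season and area, 0 of 21284 probes, or 0.00%, passed the threshold, the lowest adjusted p was 0.461, and 1252 had an unadjusted p under 0.05, or 5.88%. Across these 21284 probes, the differences of the 2 areas correlated with a Pearson r of 0.47, a description across probes, which are not independent. In a fit of the Strait as a whole, chosen after seeing the data, 2330 of 21284 probes passed the threshold, or 10.9%, with 1083 higher and 1247 lower in fall. With slide as a random block the count was 867.

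**Figure D2:**
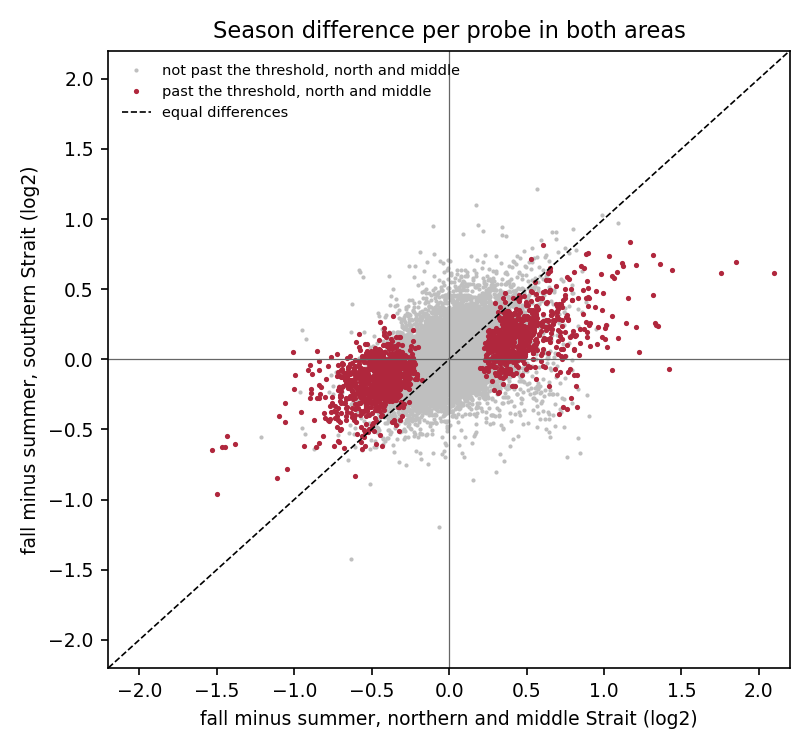
Fall minus summer difference (log2) of each probe in northern and middle fish (horizontal axis) and in southern fish (vertical axis), with probes past the threshold in northern and middle fish in red and the dashed line marking equal differences. The red probes lie mostly on the same side of 0 on both axes and closer to 0 on the southern one, with medians of 0.44 and 0.16 for the higher and -0.44 and -0.13 for the lower probes.

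The named probes of that list spread widely between fish in both areas. Fall SDs in the south and in the north and middle were 1.57 and 1.69 for C226R055, and 1.56 and 1.53 for C047R007. C226R055 had a lowest, median and highest value of -3.35, -1.44 and 1.46 in southern summer fish and of -2.99, -0.78 and 3.10 in southern fall fish. The seasons overlapped over most of their range. The southern difference was 0.69 (95% interval -0.19 to 1.58), against 1.85 (1.16 to 2.54) in northern and middle fish, and the difference between areas of -1.19 had a limma adjusted p of 0.839. C047R007 ran from -3.95 through -0.94 to 2.57 in southern summer fish and from -3.61 through -0.11 to 2.86 in fall, again with almost the same range. Its difference was 0.61 (-0.31 to 1.53) in the south and 1.75 (1.07 to 2.44) in the north and middle, a gap of -1.18 between areas (limma adjusted p = 0.839).

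Of the lower probes, C057R042 ran from -3.19 through -0.84 to 0.51 in southern summer fish and from -3.68 through -2.01 to 0.17 in southern fall fish. The fall median lay more than 1 below that of summer, while both extremes overlapped. The difference was -0.96 (-1.56 to -0.36), with an unadjusted limma p of 0.00223 and an adjusted p of 0.454, and it was -1.50 (-1.94 to -1.06) in northern and middle fish. C046R130 had values of -3.80, -1.35 and 0.38 in southern summer fish and of -5.40, -1.93 and 0.42 in fall. Its difference was -0.65 (-1.46 to 0.17) in the south and -1.53 (-2.22 to -0.84) in the north and middle. For these 2 probes the limma adjusted p of the difference between areas was 0.917 and 0.899. By region, a split chosen after values were seen, Fraser fall fish in the south had means of 0.33 (C226R055), 0.70 (C047R007), -2.61 (C057R042) and -3.12 (C046R130). In ECVI and S_Main fall fish together the means were -1.42, -1.10, -1.49 and -1.21, against -1.21, -0.93, -1.07 and -1.35 in summer. In those regions C057R042 alone of the 4 kept the listed direction.

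**Figure D3:**
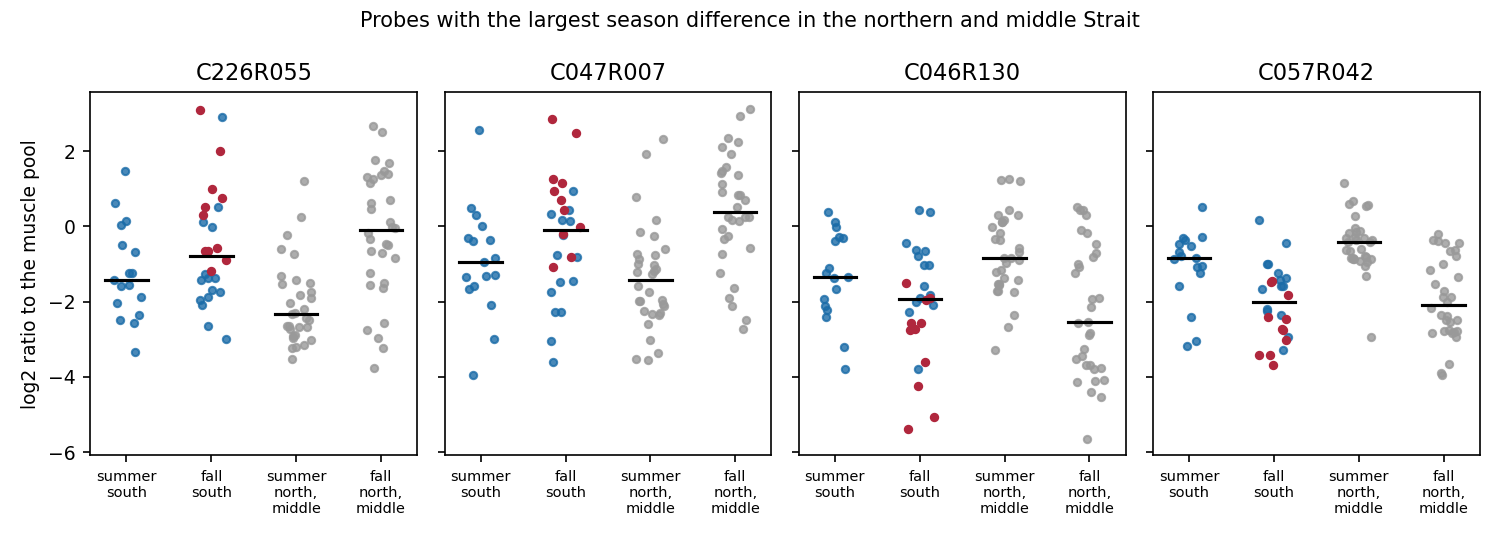
Log2 ratio to the muscle pool of 4 probes, the 2 highest and the 2 lowest season differences past the threshold in northern and middle fish among probes with values in 80% of each group and the same sign in both origins. Points are fish, with southern fall fish of region Fraser in red, other southern fish in blue and northern and middle fish in grey, and black lines are medians. The seasons overlap in every panel in both areas, and the southern median of C057R042 moves from -0.84 to -2.01.

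To follow this list fish by fish, a season score was taken as the mean of a fish's values over the 724 higher probes minus the mean over the 927 lower ones. Southern summer fish had a lowest, median and highest score of -0.64, -0.10 and 0.90, and southern fall fish of -0.53, 0.30 and 1.21. The fall fish were higher on the whole but overlapped the summer range widely. The means were -0.00 ± 0.43 (SD, n = 17) and 0.35 ± 0.44 (n = 26), a difference of 0.35 (95% interval 0.08 to 0.63, two-sided permutation p = 0.0134, and p = 0.0143 with labels permuted within origin). The permutation and the interval treat fish as independent. Some fish shared a slide or a catch position, so the p can be too small and the interval too narrow. Leaving out single fish gave differences of 0.31 to 0.41, and the 292 probes called with slide as a random block gave 0.47 (0.08 to 0.87, permutation p = 0.0183). In northern and middle fish, which chose the probes, the score was -0.36 ± 0.37 in summer and 0.62 ± 0.52 in fall, so that southern means lay between them in both seasons. The 15 southern spring fish of 2009, all wild, had a score of -0.35 ± 0.69, from -1.39 to 1.05. Those of region ECVI scored -0.70 to 1.05, and those of regions Fraser, Chilliwack_R and Puget_Sound -1.39 to -0.45. The low spring mean thus went with region as well as season, and this was not tested. In the 2 slides with both seasons, the fall fish exceeded the mean of the summer fish by 0.65 (1 against 3 fish) and by 0.48 (1 against 1). On the slide with 4 fish, the fall fish had region Fraser and the summer fish ECVI or unknown. On the other slide both fish were ECVI, and the summer fish, at -0.64, had the lowest score of the southern summer.

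The difference in score was 0.58 in hatchery fish (0.21 to 0.94, exact permutation p = 0.00980, 12 against 6 fish) and 0.19 in wild fish (-0.20 to 0.58, permutation p = 0.309, 14 against 11 fish). Whether the 2 score differences differ was not tested. Per probe, with the product of origin and season in the limma fit, 0 of 20825 probes passed the threshold, or 0.00%, with a lowest adjusted p of 1.00 and 970 probes at an unadjusted p under 0.05, or 4.66%. The origins were not spread evenly over the regions, since all 7 ECVI fall fish were wild and 8 of the 11 Fraser fall fish were of hatchery origin.

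The region label went with the score among the southern fall fish. This split was chosen after the scores were seen, so it is given without a test. The 11 Fraser fish scored 0.29 to 1.21 with a median of 0.69 and a mean of 0.70 ± 0.24 (SD). The 7 ECVI fish scored -0.17 to 0.31 with a mean of 0.07 ± 0.15, and the 7 S_Main fish -0.53 to 0.31 with a mean of -0.04 ± 0.29. The lowest Fraser fish, at 0.29, was the only one within the range of the other 2 regions, and the single Chilliwack_R fish scored 1.12. The order held within each origin: hatchery fish scored 0.74 ± 0.27 (n = 8) with region Fraser and -0.02 ± 0.23 (n = 4) with region S_Main, and wild fish scored 0.61 ± 0.12 (n = 3) with region Fraser and 0.03 ± 0.24 (n = 10) in ECVI and S_Main together. The mean score was 0.01 in the 14 ECVI and S_Main fall fish and -0.00 in the 17 summer fish. Within ECVI it was 0.07 in fall and 0.06 in summer. The 11 ECVI summer fish spread from -0.64 to 0.90 (SD 0.51). They include 3 fish of a single slide and catch position, with scores of 0.45 to 0.90, which raise that mean. ECVI fish without that slide were not compared. The 2 southern summer fish of region Fraser scored -0.24 and -0.10, within the range of the other summer fish.

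**Figure D4:**
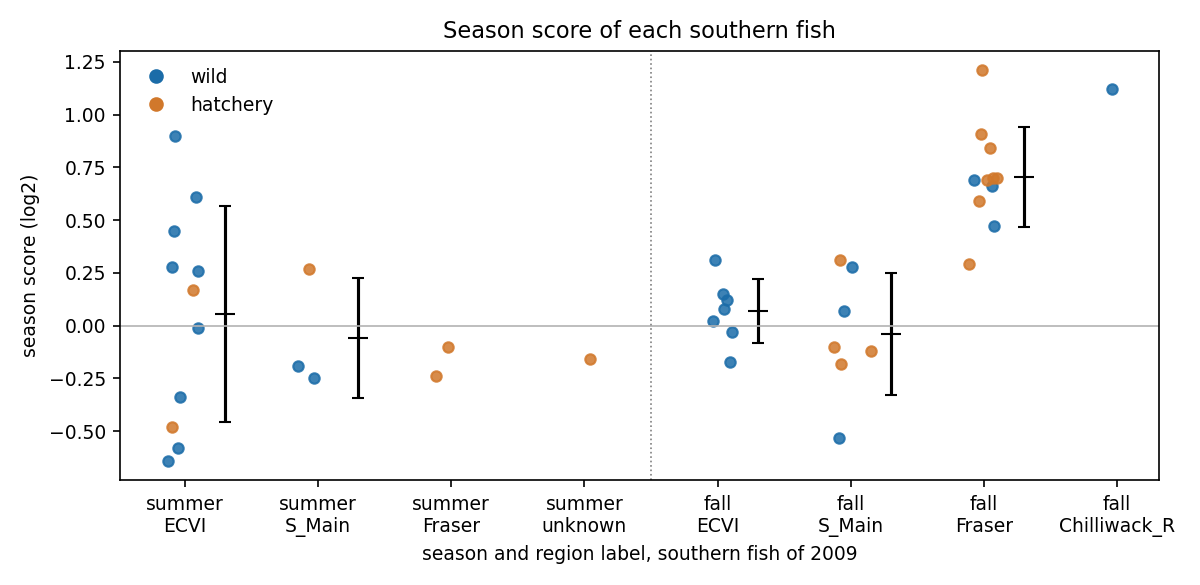
Season score (log2) of each southern fish of 2009 by season and region label, blue for wild and orange for hatchery fish, with bars for the mean ± SD where a group held 3 or more fish. Fall fish of region Fraser have a mean of 0.70 and lie between 0.29 and 1.21, while fall fish of regions ECVI and S_Main lie between -0.53 and 0.31.

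No slide held both Fraser fish and ECVI or S_Main fish of the southern fall. The Fraser fish lay on 7 slides and the ECVI and S_Main fish on 8, so region and slide cannot be told apart here. The single Chilliwack_R fish shared a slide with Fraser fish. In northern and middle fall fish the same split gave no such gap, with scores of 0.60 ± 0.59 (n = 8) for Fraser and 0.63 for the other 24 fish, a difference of -0.03 (-0.54 to 0.48, exact permutation p = 0.855). In summer fish there, scores were -0.47 ± 0.32 (n = 15) for Fraser, -0.42 ± 0.40 (n = 11) for S_Main and 0.03 ± 0.11 (n = 6) for ECVI. Regions were unevenly spread over the seasons there, with Fraser in 15 summer and 8 fall fish and ECVI in 6 and 12. All these northern and middle fish also chose the probes. Fork lengths of the southern regions overlapped, at 20.5 to 26.7 cm in Fraser, 17.1 to 28.8 cm in ECVI and 23.1 to 26.9 cm in S_Main fall fish. The share of empty cells was 50.0% ± 8.14 in Fraser, 33.9% ± 10.7 in ECVI and 45.9% ± 5.50 in S_Main fall fish, and its part in the result was not tested.

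The same fish were compared probe by probe, and since the split was chosen on their scores, the p-values do not allow for that choice. Here limma with origin as a covariate found 13 of 21036 probes, or 0.0618%, to differ between the 11 Fraser and the 14 ECVI and S_Main fall fish, 5 higher and 8 lower in Fraser. Of these, 4 of the 5 higher and 4 of the 8 lower probes were on the list behind the score, in the same direction. C089R026 and C133R016 are among them, so these calls are not separate from the score. C233R068 was between -2.09 and -0.25, with a median of -1.62, in 10 Fraser fish and between -1.39 and 0.82, with a median of 0.11, in the others. The difference was -1.38 (SE 0.22, limma adjusted p = 0.0323). C089R026 was between -1.57 and -0.31 in Fraser fish and between -0.31 and 0.83 in the others, which met only at their ends, and differed by -0.92 (SE 0.17, limma adjusted p = 0.0451). C073R076 was higher in Fraser fish, between -0.22 and 1.14 against -1.89 and 0.59, by 1.43 (SE 0.28, limma adjusted p = 0.0451). C133R016 was higher by 1.10 (SE 0.22, limma adjusted p = 0.0451). With slide as a random block 0 probes were called, with latitude and longitude as covariates 0, without origin 416 and without fall replicates 9 and 18 39. Leaving out single fish gave 0 to 62 probes, so the count of 13 rests on the choice of fish and model.

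In northern and middle fish, 3 of 21483 probes, or 0.0140%, differed between Fraser and other fish in fall and 5 of 21530, or 0.0232%, in summer. With slide as a random block both counts were 0. In fall, 4 of the 5 probes higher in southern Fraser fish and 8 of the 8 lower ones had the same direction there, with medians of 0.35 and -0.28. In summer 1 of the 5 and 0 of the 8 did, with medians of -0.26 and 0.25, and 0 of them passed the threshold in either season. Among all probes tested there, 47.1% were higher in Fraser fish in fall and 50.0% in summer. In fall the 4 named probes differed there by -0.04 (C233R068), -0.29 (C089R026), 0.82 (C073R076) and 0.27 (C133R016), with limma adjusted p of 0.992, 0.808, 0.825 and 0.956. Between ECVI and S_Main, 0 of 22565 probes differed in southern fall fish, or 0.00%, with 1237 at an unadjusted p under 0.05, or 5.48%, and a lowest limma adjusted p of 0.635.

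The season comparison within 1 origin and 1 region, 7 fall against 9 summer wild ECVI fish, gave 1 probe of 21845 past the threshold, or 0.00458%, which was lower in fall, and 1488 at an unadjusted p under 0.05, or 6.81%. Blocking on slide as a random effect gave 0 probes, as did asking for values in 80% of each group, and the count stayed 1 without fall replicate 9, which is among these fish. That probe was C076R040, named after its values were seen. Its lowest, median and highest values were 1.21, 1.57 and 2.25 in 5 of the 9 summer fish and -0.44, -0.04 and 0.23 in 5 of the 7 fall fish, and the other fish had none. The groups did not overlap, and the difference was -1.77 (SE 0.22, 95% interval -2.24 to -1.30, limma adjusted p = 0.0450, and 0.162 with slide as a random block). Over all southern fish it was 0.12 to 2.25 in 9 summer fish and -0.44 to 1.20 in 17 fall fish, which overlapped, with a difference of -0.73 (-1.19 to -0.27, limma adjusted p = 0.454). On the northern and middle list these wild ECVI fish had medians of -0.00 over 719 higher probes and 0.01 over 924 lower ones, with 49.8% and 47.6% in the listed direction. Among all 21845 probes, 50.1% were higher in fall in these fish. The 9 summer fish include the 3 fish of the slide with the highest summer scores, and the list was not read without them.

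Body length was examined next, because it rose with season. Within seasons, with origin and season as covariates, 542 of 21784 probes, or 2.49%, followed fork length, 180 rising and 362 falling. The slope of C196R045 was 0.28 per cm of length, with an SE of 0.08 and a limma adjusted p of 0.0411. That of C092R164 was 0.27 (SE 0.07, adjusted p = 0.0399). C012R159 had a slope of -0.37 per cm (SE 0.09, adjusted p = 0.0200) and C205R051 of -0.35 per cm (SE 0.08, adjusted p = 0.0158). The number of calls leaned on the 2 fish that stood apart, fall replicates 9 and 18, which at 19.2 and 21.7 cm were among the shorter fall fish. C205R051 was 4.52 and 4.22 in these fish, and between -2.85 and 1.80 in the other fall fish with a value. Without them 46 probes were called, and the slopes of the 4 named probes became 0.30, 0.29, -0.22 and -0.22 per cm, with limma adjusted p of 0.109, 0.107, 0.138 and 0.109. The 2 rising slopes did not shrink without these fish, while the 2 falling ones did.

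In fall fish alone, 6 of 22882 probes, or 0.0262%, followed length, against 0 without fall replicates 9 and 18 and 35 with quantile normalization. In summer fish alone 0 of 22095 probes did, or 0.00%, with 3298 at an unadjusted p under 0.05, or 14.9%. Summer slopes were 0.51 for C196R045, 0.52 for C092R164 and -0.20 for both C012R159 and C205R051. Their limma adjusted p were 0.170, 0.158, 0.287 and 0.279. Single fish moved the count over both seasons widely: it fell to 33 without fall replicate 9 and rose to 1070 without fall replicate 8, the shortest fall fish. It was 299 without fall replicate 18, 312 without fall replicate 3, and 318, 342 and 307 without summer replicates 1, 11 and 14. In northern and middle fish 0 of 21756 probes followed length, or 0.00%, with 1698 at an unadjusted p under 0.05, or 7.80%, and a lowest limma adjusted p of 0.129. Of the 180 rising probes, 177 were tested there, with a median slope of 0.0108 against 0.0753 in the south, and 123 of them, or 69.5%, rose. Of the 362 falling probes, 361 were tested, with a median slope of 0.00277 against -0.125, and 171 of them, or 47.4%, fell. Among all 21756 probes there, 51.9% rose with length. The 180 and 362 probes come from the fit that includes fall replicates 9 and 18, and no list without these fish was read there.

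**Figure D5:**
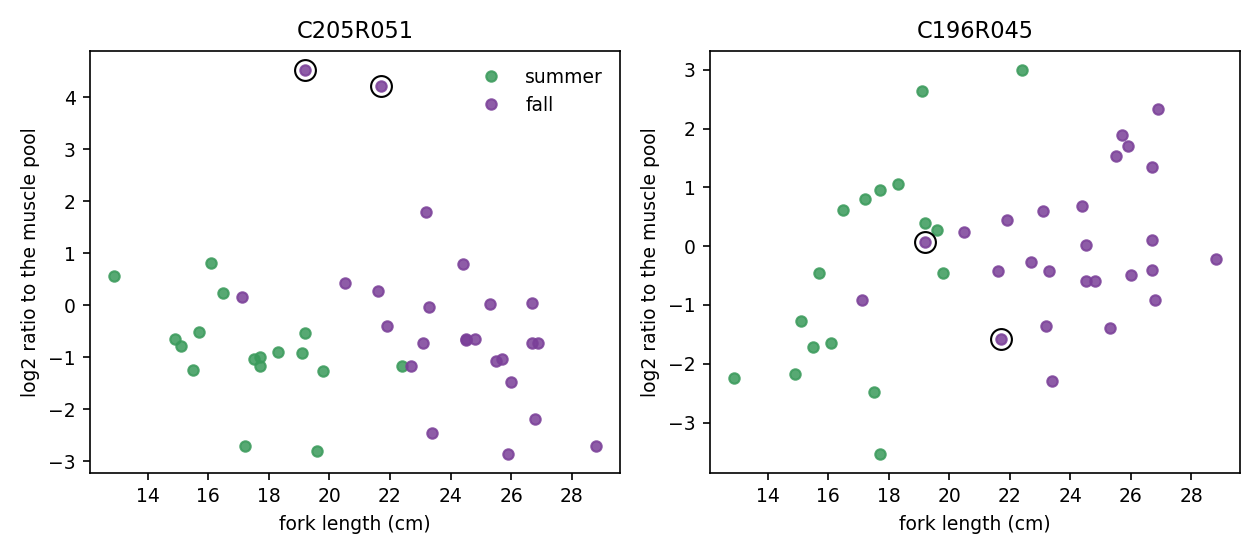
Log2 ratio to the muscle pool against fork length (cm) of 2 probes that followed length within seasons, for each southern fish, green for summer and purple for fall, with open rings around fall replicates 9 and 18. The ringed fish lie at 4.52 and 4.22 for C205R051, whose slope was -0.35 per cm with them and -0.22 without them, and C196R045 had slopes of 0.28 and 0.30.

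With fork length as a covariate, 557 of 21784 probes, or 2.56%, differed between seasons, 377 higher and 180 lower in fall. Of these, 322 were among the 542 that followed length, and all 322 had a season difference of the opposite sign to their slope. Fall fish were longer and season differences without length were small, so opposite signs follow from the fit itself and are no separate result. Only 16 fish lay in the lengths that both seasons share, 17.1 to 22.4 cm. This fit assumes the same slope in both seasons and extends it across lengths, so it does not compare matched fish. The fit is called season at equal length below. Among the named probes, C064R122 differed by 3.03 (SE 0.86, limma adjusted p = 0.0451), C012R159 by 2.94 (SE 0.70, adjusted p = 0.0222), C036R120 by -1.43 (SE 0.38, adjusted p = 0.0354) and C161R033 by -1.26 (SE 0.32, adjusted p = 0.0285). Without fall replicates 9 and 18, 1 probe was called, and it was none of these 4. Without fall replicate 9 alone the count was 4, without fall replicate 18 it was 101, and without fall replicate 8 it was 1030. It was 351 without fall replicate 5, and 327, 370 and 324 without summer replicates 1, 7 and 10.

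In the 16 fish between 17.1 and 22.4 cm, 10 of summer and 6 of fall, 0 of 22268 probes differed between seasons, or 0.00%, with a lowest limma adjusted p of 0.0956. With quantile normalization 105 probes differed. At an unadjusted p under 0.05 there were 4372 probes, or 19.6%. Fall replicates 9 and 18 are among these 6 fall fish, and without them 0 of 22221 probes passed the threshold and 1891, or 8.51%, reached an unadjusted p under 0.05. On the northern and middle list these 16 fish had medians of 0.10 over 720 higher probes and -0.06 over 923 lower ones. The season score rose with length among summer fish, with a Pearson r of 0.55 (n = 17, permutation p = 0.0212, adjusted p = 0.0425 over both seasons) and a Spearman rho of 0.64 (p = 0.00520). Leaving out the 2 fish whose length was farthest from the median gave an r of 0.59, as did leaving out the 3 fish of the slide with the highest scores. Among fall fish r was 0.15 (n = 26, permutation p = 0.458, adjusted p = 0.458), rho 0.07 (p = 0.726), and r 0.03 without the 2 farthest.

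The third area with both seasons in 2009 was the west coast of Vancouver Island (label WCVI), with 8 summer and 10 fall fish. Their region labels were mostly others than in the south, with Columbia in 6, Oregon in 1 and North in 1 of the summer fish, and Columbia, ECVI, North, Oregon and Puget_Sound in 2 each of the fall fish. Area and region cannot be told apart in this contrast. There 1071 of 21528 probes, or 4.97%, passed the threshold, 489 higher and 582 lower in fall. Over all 21784 probes tested in southern fish, 11116 were higher in fall. Of the west coast list, 297 of 483 higher probes, or 61.5%, had the same direction in southern fish, only modestly more than among all probes. So did 424 of 581 lower ones. The median of the higher probes was 0.07 in the south against 0.86 on the west coast, and that of the lower ones -0.08 against -0.74. The difference between the areas passed the threshold for 234 of 20988 probes, or 1.11%, in a limma fit of 61 fish chosen after seeing the data, for 84 with slide as a random block and for 330 without fall replicates 9 and 18.

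C011R058 shows the largest contrast among the named probes. On the west coast it ran from -3.81 through -2.11 to 0.91 in 7 summer fish and from -1.81 through 0.65 to 2.76 in fall, and in the south from -2.97 through -1.04 to 1.58 in summer and from -2.37 through -0.79 to 1.58 in fall. West coast fall fish lay mostly above their summer fish, while the southern seasons covered the same range. The differences were 2.86 and -0.13 (95% interval -0.79 to 0.54), and their gap of -2.93 had a limma adjusted p of 0.0181. C044R036 differed by -2.59 on the west coast and by -0.20 (-0.85 to 0.44) in the south, a gap of 2.38 (limma adjusted p = 0.0287). For C092R164, with 2.83 and 0.37, and C113R107, with -2.72 and -0.23, the gap did not pass the threshold (limma adjusted p = 0.0864 and 0.108).

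The empty cells were compared as well, since a probe without a value in most fish cannot enter the fit. Of 17653 probes tested for whether a value was present, 0 passed the threshold between seasons in Fisher's exact test, with a lowest adjusted p of 0.961 and 420 at an unadjusted p under 0.05, or 2.38%. Only 20 of the 60 control rows could be tested by limma, of which 0 passed the threshold and 2 reached an unadjusted p under 0.05. Their median absolute season difference was 0.105, against 0.104 over all probes. The control rows thus differed between seasons about as much as the probes did.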

How the data were processed

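White muscle RNA of 43 southern fish was compared, with 64 northern and middle and 18 west coast fish of 2009 beside them. The authors deposited 1 normalized log ratio per probe and fish, per the file headers and labels; other values such as spot intensities were not used here. Background correction, normalization, the filter behind empty cells, the log base and the direction were not given in the sources used here. As log2 fish over pool is likely, the deposited values were read so. Over 372 probes with a variance above 1.6, the log2 of the mean ratio was -0.03 in that reading. It was 1.64 as log2 pool over fish and 0.72 as natural log fish over pool. At variances of 0.1 to 0.2 the same readings gave 0.11, -0.01 and 0.19, so the choice rests on the variable probes. No signal depth is known, so the number of fish limits precision. Fish are separate animals per the labels, and p-values measure the spread between these fish. Fish that shared a slide or a catch position were counted as independent, except where slide was a block.

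Probes with a value in at least 50% of each group were tested in R 4.3.3 with limma 3.58.1 (lmFit, eBayes, Benjamini-Hochberg, threshold 0.05), origin as a covariate; control rows were left out. Permutation tests were two-sided. Fits were tested on simulated data. Per comparison at most 2 higher and 2 lower probes are named: the largest differences past the threshold with values in 80% of each group and the same sign in both origins (for length, in both seasons). The alternatives were other covariates, slide as a block, normalization, filters and subsets of fish. Fish, lists and comparisons were chosen with earlier results of these data known. Southern fish were read from the deposited table with control rows and all other fish from the deposited value table, which held the same values for the southern fish. The other 178 value columns of the first table were not used.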

Additional observations from a re-analysis of the deposited data

Results flagged for a closer look

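Values far from the rest of their group were looked for in 13 groups of 4 to 10 fish, where chance marks about 1 group in 20. One summer ECVI fish had a condition factor of 0.979, far below the others of its group. One summer hatchery fish had 39.3% of its probe cells empty, fewer than the other fish of its group. The fall minus summer difference differed between southern and west coast fish for 234 probes, by the test of the difference itself.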

How the results depend on the processing

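No paired analysis was possible because the summer and fall fish are separate animals, and the replicate numbers used are only accession order. The count of 0 probes between seasons in southern fish stayed 0 under other covariates, quantile normalization, median centring, other filters and tests, each origin alone, males alone and slide as a random block, and without each fish in turn (0 to 0 called, 1421 to 2079 with an unadjusted p below 0.05). A fixed block for slide turned it into 142 of 19484 probes, where the 6 fish on slides with both seasons carry the comparison. In all 125 summer and fall fish of 2009 that block gave 33 of 20787. Slide as a random block gave 368 probes for season at equal length, 292 for northern and middle fish, 84 for the south against the west coast, 867 for the Strait as a whole, and 0 for wild ECVI fish and for Fraser against other fall fish in the south; 0 also replaced the 3 fall and 5 summer probes of the Fraser comparisons in northern and middle fish, where a value in 80% of each group gave 0 for summer as well. Quantile normalization gave 252 probes for length, 135 for season at equal length, 105 for the length-matched fish, 3 for Fraser, 35 for length in fall fish alone (6 otherwise) and 1 in summer fish alone (0 otherwise). With values in 80% of each group there were 0 for wild ECVI fish and 31 for Fraser. Without fall replicates 9 and 18 there were 46 probes for length, 1 for season at equal length, 39 for Fraser and 0 for length in fall fish alone. Region as a covariate gave 1033 in northern and middle fish. The Fraser count was 1 with sex, 2 with length, 0 with latitude and longitude as covariates and 416 without origin. Leaving out single fish gave 33 to 1070 probes for length, 4 to 1030 for season at equal length and 0 to 62 for Fraser, where 24 of the fish left out moved it by over 1.5 times. The season score difference was 0.19 in wild fish, 0.17 with the west coast list, 0.02 without Fraser and Chilliwack_R fish and 0.01 in ECVI fish, none past the threshold; the last 2 sets were chosen after the scores were seen. The cause of these shifts was not tested. Over these results, 66 settings moved a count beyond 1.5 times and 4 settings lost the threshold. The other 238 kept their direction and side of the threshold or stayed within 1.5 times, and 0 results reversed. For single named probes 226 settings kept the call, 31 lost it and 1 gained it (C046R130, -2.15 with slide as a fixed block in all summer and fall fish of 2009). Spot signals over background were not used here, so the number of fish is the limit that could be stated.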
